A study of Mus musculus with 8 samples.

Results

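The cytosolic large ribosomal subunit genes are those that encode the proteins of the 60S subunit, and they were taken as every gene whose symbol has the form *Rpl* followed by a number, with or without the endings a, l, al or l1, or is *Rplp0*, *Rplp1* or *Rplp2*. Of the 41709 genes in the table, 52 were members, and 50 of these reached 1 TPM (transcript abundance per length, scaled to the same total in each muscle) in 4 or more of the 8 muscles and were tested. The 60S subunit holds the peptidyl transferase centre, where amino acids are joined, the exit tunnel through which the new chain leaves, and the P stalk, which recruits the GTPases that drive translation. The mRNAs of its proteins mostly begin with a run of pyrimidines, the 5' terminal oligopyrimidine (TOP) tract, through which their translation is controlled together. Some genes have paralogs with restricted expression, of which *Rpl3l* is used in skeletal muscle and heart in place of *Rpl3*. Ribosomal proteins that find no place in a subunit are ubiquitinated and degraded, and ubiquitin itself is in part made as a fusion with ribosomal proteins.

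RNA-seq was done on 8 tibialis anterior (TA) muscles of male C57BL/6J mice, 3 months old, collected 7 days after electroporation. In each of 4 mice, 1 TA muscle received a pool of siRNAs against *Uba1* (siUBA1), which encodes the main E1 enzyme that activates ubiquitin, and the contralateral muscle received control non-targeting siRNAs (siNT). The comparison asks whether the mRNAs of large subunit proteins differed with *Uba1* siRNAs. Muscles that share a replicate number are from the same mouse. Every siNT muscle is lettered R and every siUBA1 muscle L, and an effect of the leg cannot be told apart from that of the siRNAs. All muscles were injected and electroporated, there was no untreated muscle, and the siRNAs were not directed to a cell type, so each value is that of a whole muscle. The siUBA1 group follows the titles and descriptions, which name UBA1 in all 4 cases, although the treatment tags count upward from UBA1 in replicate 1 to UBA4 in replicate 4.

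*Uba1* itself was at 59.0 to 63.6 TPM in the siNT muscles and at 18.1, 6.77, 15.8 and 23.1 TPM in siUBA1 replicates 1 to 4, so the groups did not overlap, with a log2FC of -1.98 ± 0.290 (SE; limma, adjusted p = 0.0527, or 0.0278 with the replicate number as a block). TPM fix each muscle's total, so a large class of transcripts that takes more of one library lowers all others there. Transcripts of the mitochondrial genome took 42.1% to 45.7% of the TPM in siNT muscles, and 40.2%, 50.3%, 39.9% and 46.5% in siUBA1 replicates 1 to 4. The number of reads per muscle is not kept in TPM, so 4 muscles a group set the precision. In whole muscle, a change in the share of a cell type and a change of its RNA cannot be told apart. The defining markers of muscle fibres were present in every muscle, with 10 of 10 tested and a summed level of 133529 to 146322 TPM with NT siRNAs and 135552, 103108, 147876 and 120698 TPM in siUBA1 replicates 1 to 4, so siUBA1 replicates 2 and 4 were below every siNT muscle.

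All 52 members were found in the GENCODE M39 annotation of GRCm39, where they lie on 18 chromosomes with 6 on chromosome 11. The longest coding length is that of *Rpl4*, with 1257 bases. In the window from 50 bases before to 100 bases after the annotated start of the canonical transcript, read on the transcribed strand, the string CTTTC occurred in 22 of the 52 members (42.3%) and in 15.8% of the 10858 tested protein-coding genes. CTTTCC occurred in 18 members (34.6%) and in 6.98% of those genes, CTCTTTC in 9 (17.3%) and in 1.98%, and CTCTTTCC in 7 (13.5%) and in 0.801%. The 4 strings lie within each other, were chosen after looking at the sequences, and are made of pyrimidines only. Most members held none of them in this window. The start used by these muscles was not measured, and a member without the string lacks only these letters in this window.

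The 7 members with CTCTTTCC are printed because they hold the longest of the 4 strings, and *Rpl22* because it has the lowest unadjusted p in the comparison below. Each run is 30 bases from GRCm39, 5' to 3' on the transcribed strand, and the capitals mark the string, which lies in the first exon in the 5' UTR, with its first base at positions 33 to 57 for the 7 and at position 2 for *Rpl22*, counted from 1 at the annotated start. In the 7 members it thus lies inside the annotated 5' UTR and not at the annotated start. A TOP tract lies at the start in use, which was not measured, so whether these strings belong to one was not tested.
*Rpl6*: ctgccttagttCTCTTTCCcgtcttgcaag
*Rpl11*: cagctatgcctCTCTTTCCccctctcccct
*Rpl18*: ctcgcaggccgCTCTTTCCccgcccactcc
*Rpl26*: cgcgtgtagttCTCTTTCCttttgcggcca
*Rpl28*: ctctcgtgtctCTCTTTCCgtctccggccg
*Rpl29*: ctaggcttcaaCTCTTTCCggccttggaac
*Rpl36a*: ctctagcctctCTCTTTCCgagctgctagc
*Rpl22*: tctgactcctccCTTTCCcgacagccgact
They lie at chr5:121342586-121342615 (plus strand) for *Rpl6*, chr4:135780751-135780780 (minus strand) for *Rpl11*, chr7:45367485-45367514 (plus strand) for *Rpl18*, chr11:68792404-68792433 (plus strand) for *Rpl26*, chr7:4795953-4795982 (plus strand) for *Rpl28*, chr9:106306612-106306641 (plus strand) for *Rpl29*, chrX:133486424-133486453 (plus strand) for *Rpl36a* and chr4:152410139-152410168 (plus strand) for *Rpl22*. *Rpl3*, *Rpl3l*, *Rpl22l1*, *Rplp0*, *Rplp1* and *Rplp2* held none of the 4 strings in that window. From 250 bases before to 50 after the start, on both strands, an ETS motif (CCGGAA) was found in 23 members (44.2%) against 25.1% of the genes, a YY1 motif (GCCATNTT) in 5 (9.62%) against 7.01%, TATAAA in 6 (11.5%) against 8.3%, and the E-box CAGCTG, which myogenic factors can bind, in 5 (9.62%), among them *Rpl3l*, against 14.2%.

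The members differed in level by far more than any of them did between muscles. TPM are per length of transcript, so levels can be set side by side between genes, unless reads were shared with pseudogenes. Pseudogene rows that carry a member's name were present for *Rpl9*, *Rpl10*, *Rpl36*, *Rpl36a* and *Rplp2*, so their places in the order are less certain. *Rpl10* was at 67.4 to 105 TPM alone and at 398 to 485 TPM with its pseudogene row added. The mean over the 8 muscles was highest for *Rplp1*, a protein of the P stalk, at 1150.1 TPM, followed by *Rplp0*, the stalk's base, at 709, *Rpl23a* at 539, *Rpl36* at 507 and *Rpl3l* at 502 TPM. In each muscle *Rplp1* was above *Rplp0*, while *Rpl36* and *Rpl3l*, neighbours in this order, had overlapping ranges. The lowest tested members were *Rpl7l1* at 17.8, *Rpl22l1* at 28.5 and *Rpl3* at 43.7 TPM, all of them members of paralog pairs. Between *Rplp1* and *Rpl7l1* the mean level differed 64.7-fold, the median of the 50 tested members was 153.1 TPM, and 35 members were above 100 TPM. *Rpl39l* was between 0.0777 and 0.713 TPM and *Rpl10l* was listed at 0 in all muscles. *Rpl10l* and *Rpl39l* are known from testis.

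**Figure D1:**
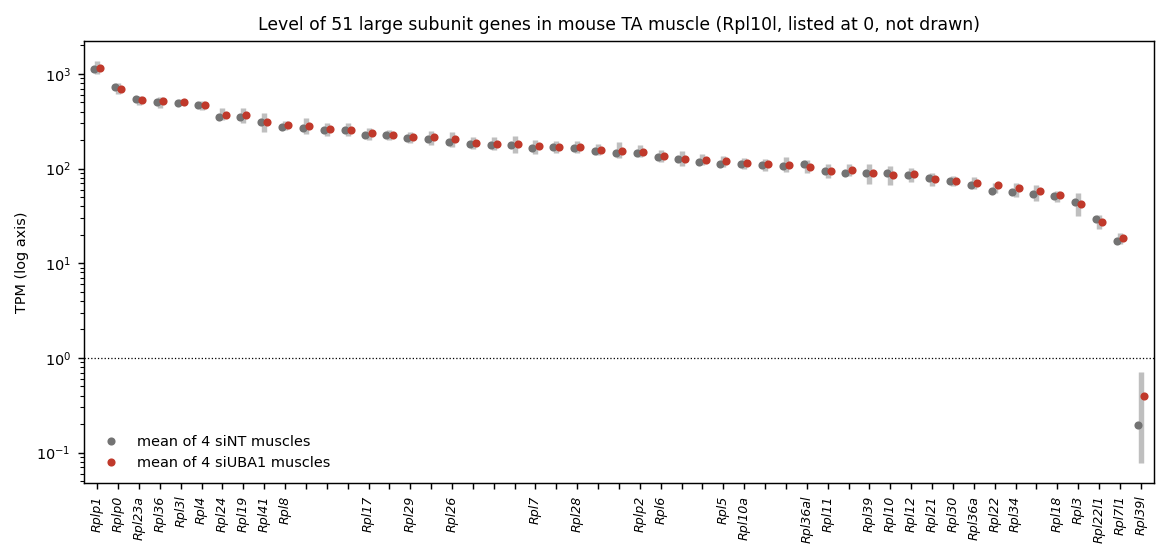
Level of each member in TPM on a log axis, ordered by its mean over 8 muscles, with the mean of the 4 siNT and the 4 siUBA1 muscles as points and the range over all 8 as a grey bar; genes named in the text are labelled. The group means lie close together for most tested genes, while those of *Rpl22* are 58.0 TPM (siNT) and 66.9 TPM (siUBA1). The levels run from 1150.1 TPM for *Rplp1* to 17.8 for *Rpl7l1*, and *Rpl39l* lies under the dotted line at 1 TPM.

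No mRNA of the large subunit passed the test of a difference with *Uba1* siRNAs, and with TPM as deposited 47 of 50 log2FC values were within 0.1 of 0. Of the 50 members, 0 passed an adjusted p of 0.05 (limma with Benjamini-Hochberg adjustment over all genes), where 0.0260% of the 11530 genes tested did, that is 3 genes. At an unadjusted p under 0.05, 1 member was higher, *Rpl22*, and 0 were lower, where 16.0% of all genes were higher and 1.98% lower. The linear model without moderation gave the same counts, 0 members past the adjusted and 1 past the unadjusted p, where 18.5% of all genes passed the latter. By the Kruskal-Wallis test 1 member passed the unadjusted p, where 19.2% of all genes did. There *Uba1* and *Rpl22*, with fully separated groups, had an adjusted p of 0.180, and 0 of all genes passed, so its 0 members past the adjusted p carry no information. The log2FC was smaller than its own standard error for 47 of the 50. The standard errors ran from 0.0629 for *Rpl22* to 0.169 for *Rpl3* and had a median of 0.0982. A log2FC of 0.20 with the smallest of these errors, that of *Rpl22*, did not pass the adjusted p, so changes of that size were not detectable by this test. The lowest unadjusted p after that of *Rpl22* was 0.297. The groups did not overlap for 1 member, *Rpl22*, which was higher, and 0 that were lower, where 10.6% of all genes were higher and 1.01% lower without overlap.

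Of the 50 members, 39 had a log2FC above 0, where 81.8% of all genes did, and the members' median log2FC was 0.028 against 0.11 for all genes. Both figures depend on how muscles are scaled to each other. With median-ratio scaling, which sets the typical gene equal between muscles, 1 member was higher, *Rpl22*, where 50.7% of all genes were, and the median was -0.093 for the members and 0.0016 for all genes. There 21 of the 50 had a log2FC under -0.1, down to -0.23 for *Rpl22l1*, and 0 had one over 0.1. On that scale 4 members passed an unadjusted p of 0.05, all lower, *Rpl22l1*, *Rplp0*, *Rpl21* and *Rpl23a*, where 6.18% of all genes were lower and 4.43% higher, and 0 passed the adjusted p (0.199% of all genes). Quantile normalization gave 17 higher members of 50 and a median of -0.019, where 54.6% of all genes were higher. The members lay below the median of all genes by 0.077 with TPM as deposited, by 0.094 with median-ratio scaling and by 0.031 with quantile normalization. The gap for TPM as deposited, members minus all genes, was -0.124 without siUBA1 replicate 1, -0.033 without siUBA1 replicate 2 and -0.020 with no filter on low values.

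**Figure D2:**
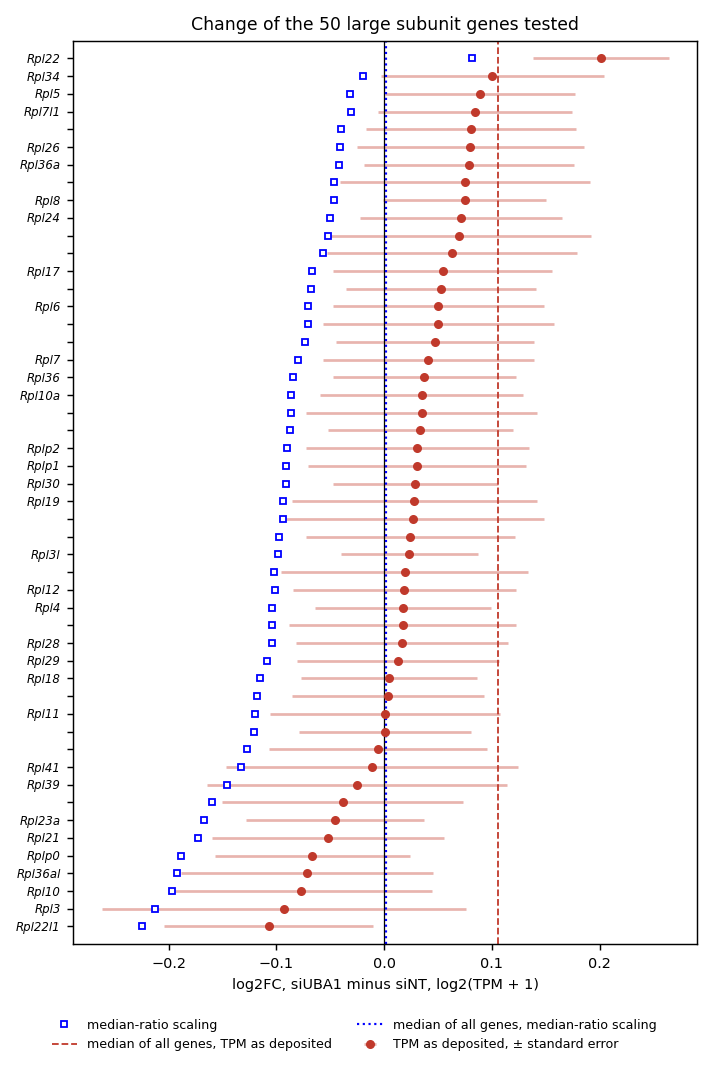
The log2FC of the 50 tested members, siUBA1 minus siNT, on the log2(TPM + 1) scale, as red points with their standard errors for TPM as deposited and as blue squares for median-ratio scaling, with the median of all 11530 genes as a dashed and a dotted line; genes named in the text are labelled. With TPM as deposited the error bars of 47 members cross 0, 39 points lie above it, and 1 square does, that of *Rpl22*.

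Most members deviated in the same direction within a muscle, and their sum spread more widely over the siUBA1 muscles than over the siNT muscles, a difference in spread that was not tested. Their summed level was 9835, 10461, 10901 and 10339.5 TPM in siNT replicates 1 to 4, and 12240, 9129, 11048 and 9927 TPM in siUBA1 replicates 1 to 4. The mean was 10384 ± 438 TPM with NT and 10586 ± 1355 TPM in the siUBA1 group (SD, n = 4 muscles), so the groups overlapped. With TPM as deposited the siUBA1 muscles held both the highest and the lowest sum of the 8, but without mitochondrial transcripts the lowest was siNT replicate 1 and with median-ratio scaling the highest was siNT replicate 2. Without the mitochondrial transcripts in the total, the means were 18443 ± 349.7 and 18952 ± 1021, and the highest sum was 1.13-fold the lowest, against 1.34-fold with them. With median-ratio scaling the order of the means turned, at 10806 ± 369.8 with NT and 10079 ± 639.5 in the siUBA1 group. It also turned for TPM as deposited without siUBA1 replicate 1, where the difference of the means, siUBA1 minus siNT, was -349.6 TPM.

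Gene by gene, the highest of the 8 muscles was siUBA1 replicate 1 for 46 of the 50 members, where it was for 34.9% of all genes, and the lowest was siUBA1 replicate 2 for 43, where it was for 19.4% of all genes. In siUBA1 replicate 1 all 50 members were above their own mean over the 8 muscles, as were 82.3% of all genes, with a median deviation of 0.24 on the log2 scale against 0.14 for all genes. In siUBA1 replicate 2, 48 of 50 were below it and 2 above, where 39.3% of all genes were above, with a median deviation of -0.20 against -0.039 for all genes. The siNT muscles lay between, with median deviations of -0.088, -0.016, 0.070 and -0.023, and so did siUBA1 replicates 3 and 4, at 0.094 and -0.069. With median-ratio scaling, the members' median deviation was 0.081 in siUBA1 replicate 1 and -0.16, -0.061 and -0.045 in replicates 2 to 4, where those of siNT replicates 1 to 4 were -0.024, 0.066, 0.087 and 0.055.

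The count of higher members changed with single muscles. Without siUBA1 replicate 1, 7 of 50 members were higher and their median log2FC was -0.044, against 0.080 for all genes. Without siUBA1 replicate 2, 47 were higher and the median was 0.10, against 0.14 for all genes. There *Rpl34* passed the unadjusted p beside *Rpl22*, as did 2148 of the 11530 genes tested. Leaving out siUBA1 replicate 3 gave 25 higher members. With replicates 1 and 2 both left out, a setting chosen after seeing the data, 37 were higher and the median was 0.021. Within the pairs of legs, 49 of 50 members were higher in the siUBA1 muscle of replicate 1 (83.3% of all genes), 2 in replicate 2 (56.1%), 35 in replicate 3 (81.8%) and 11 in replicate 4 (61.8%). The median within-pair difference of the members was 0.32, -0.18, 0.033 and -0.054 for replicates 1 to 4. The mitochondrial share of TPM was the highest of the 8 in siUBA1 replicate 2, at 50.3%, and 8 of the 10 muscle fibre markers were lowest in that muscle, with a median deviation of -0.28. The part of either in these values was not tested. With the mitochondrial transcripts taken out, the pairs held 48 (64.5% of all genes), 21 (78.9%), 18 (74%) and 36 (78.7%) higher members of 50. With median-ratio scaling they held 43 (49.7%), 2 (49.7%), 1 (50.9%) and 5 (49.4%), with median differences of 0.098, -0.22, -0.14 and -0.11, so in 3 of the 4 pairs most members were lower in the siUBA1 muscle.

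**Figure D3:**
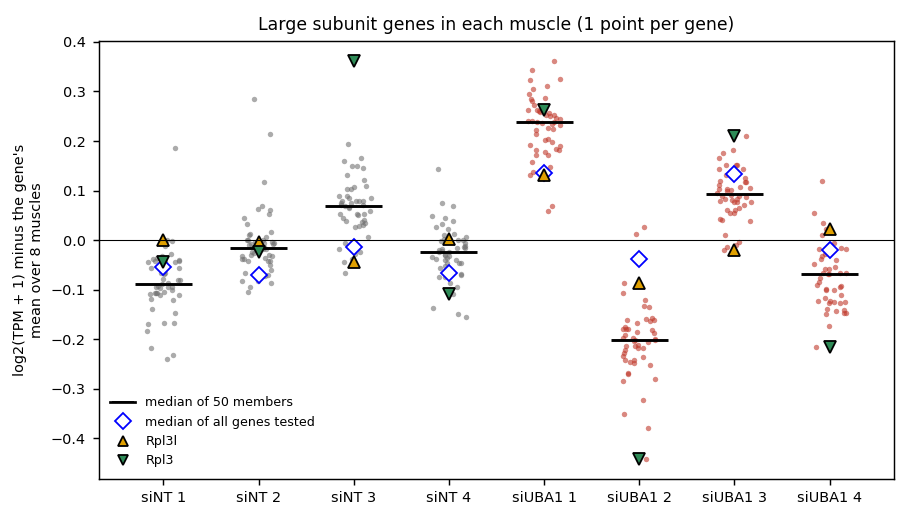
Deviation of each tested member from its own mean over the 8 muscles, in log2(TPM + 1), with 1 point per gene and muscle, the members' median as a bar, the median of all 11530 genes as a diamond, and *Rpl3l* and *Rpl3* as triangles. All 50 points lie above 0 in siUBA1 replicate 1 and 48 lie below it in siUBA1 replicate 2, while *Rpl3l* moves least over the 8 muscles and *Rpl3* most.

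Members with and without the pyrimidine string were set side by side as a description. The 21 tested members with CTTTC had a median log2FC of 0.047 and the 29 without it of 0.024. Their median deviations were 0.24 and 0.24 in siUBA1 replicate 1, and -0.18 and -0.21 in siUBA1 replicate 2. All 21 with the string had a log2FC above 0, and 18 of the 29 without it, where 81.8% of all genes did. With median-ratio scaling 1 of the 21, *Rpl22*, and 0 of the 29 were above 0, where 50.7% of all genes were.

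*Rpl3l* and *Rpl3* encode the muscle and the general form of the protein that reaches towards the peptidyl transferase centre. *Rpl3l* lies on chromosome 17 of GRCm39 from 24946751 to 24955119 (plus strand) and *Rpl3* on chromosome 15 from 79961825 to 79976069 (minus strand), with 1221 and 1209 coding bases. *Rpl3l* was at 501, 499.5, 486 and 502 TPM in siNT replicates 1 to 4 and 549, 472, 494 and 509 TPM in siUBA1 replicates 1 to 4. Its groups overlapped, and the values of siNT replicates 1, 2 and 4 were nearly equal. The log2FC was 0.023 ± 0.0635 (SE; limma, adjusted p = 0.848), and it was higher in 3 of 4 pairs (two-sided exact permutation test, p = 0.686). Over the 8 muscles it had the smallest spread of the 50 tested members, an SD of 0.063 on the log2 scale, where the next, *Rpl30*, had 0.096 and the median member 0.14. The sign of its log2FC turned with median-ratio scaling (-0.098), with quantile normalization (-0.011) and without siUBA1 replicate 1 (-0.017).

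*Rpl3* was at 41.7, 42.3, 55.6 and 39.8 TPM in siNT replicates 1 to 4 and 51.8, 31.4, 49.9 and 36.9 TPM in siUBA1 replicates 1 to 4. The groups overlapped, and siNT replicate 3, siUBA1 replicate 1 and siUBA1 replicate 3 were the high muscles. The log2FC was -0.093 ± 0.169 (SE; limma, adjusted p = 0.767), and it was higher in 1 of 4 pairs (two-sided exact permutation test, p = 0.657). Its spread over the 8 muscles was the largest of the tested members, an SD of 0.27 on the log2 scale. Its log2FC turned positive without siNT replicate 3 (0.012) and without siUBA1 replicate 2 (0.038), and was -0.21 with median-ratio scaling (unadjusted p = 0.135 from limma).

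*Rpl3l* was the predominant form in every muscle, at 89.7% to 93.8% of the TPM of the pair. The ratio of *Rpl3l* to *Rpl3* was 12.03, 11.8, 8.75 and 12.6 in siNT replicates 1 to 4 and 10.6, 15.02, 9.91 and 13.8 in siUBA1 replicates 1 to 4. The groups overlapped, at 11.3 ± 1.73 with NT and 12.3 ± 2.47 in the siUBA1 group (SD, n = 4 muscles). On the log2 scale the difference was 0.12, higher in 3 of 4 pairs (two-sided exact permutation test, p = 0.571; 0.743 adjusted over the 4 paralog pairs compared). Leaving out 1 muscle gave 0.00049 without siNT replicate 3, 0.018 without siUBA1 replicate 2, 0.056 without siUBA1 replicate 4 and 0.21 without siUBA1 replicate 3, and 0.14 to 0.18 without each of the others. The ratio was lowest where *Rpl3* was highest, and *Rpl3l* moved little.

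Markers of immature fibres, such as embryonic myosin *Myh3*, also varied between muscles. The summed level of the 8 markers was 1613, 807, 2184 and 1064 TPM in siNT replicates 1 to 4, and 1787, 222, 1909 and 489 TPM in siUBA1 replicates 1 to 4, and none of the 8 was at 0 in all muscles. The muscles with the lowest sums, siUBA1 replicates 2 and 4, were also the lowest in *Rpl3*. Nearly all of the sum is the cardiac actin *Actc1*, at 1532, 751, 2071 and 1006 TPM in siNT replicates 1 to 4 and 1679.9, 189, 1821 and 437 TPM in siUBA1 replicates 1 to 4. *Myh3* was at 12.2, 5.39, 21.7 and 8.99 TPM in siNT replicates 1 to 4, and at 14.00, 0.760, 11.8 and 6.45 TPM in siUBA1 replicates 1 to 4. *Myod1*, a myogenic factor of the same list, was at 30.2, 23.6, 22.05 and 19.6 TPM in siNT replicates 1 to 4 and 41.04, 24.4, 27.4 and 29.3 TPM in siUBA1 replicates 1 to 4, so siUBA1 replicates 2 and 4 were not its lowest muscles. Leukocyte markers summed to 112.5 to 335 TPM and 113.6 to 369.9 TPM, fibroblast markers to 386 to 845 and 500.1 to 1041 TPM, endothelial markers to 94.0 to 131 and 106 to 127 TPM, and erythrocyte markers to 1917 to 6978 and 1836 to 3667 TPM, with NT and *Uba1* siRNAs respectively. Schwann cell markers summed to 39.1 to 62.1 and 29.2 to 72.3 TPM, and adipocyte markers to 5.17 to 10.03 and 0.837 to 8.18 TPM. In each list the groups overlapped. The part of cell composition in the members' values was not tested.

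**Figure D4:**
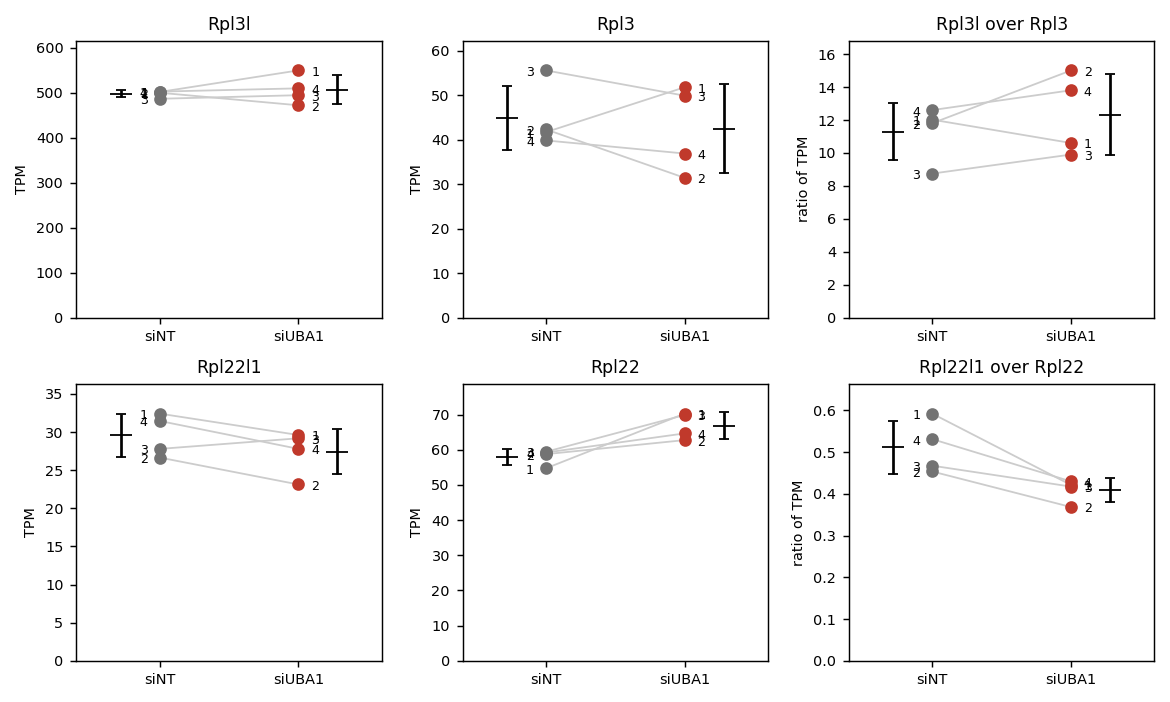
TPM of *Rpl3l*, *Rpl3*, *Rpl22l1* and *Rpl22* and the ratios of the paralogs in the siNT (grey) and siUBA1 (red) muscles, numbered by replicate, with lines joining the 2 legs of a mouse and the mean ± SD of 4 muscles beside the points. The groups overlap for *Rpl3l*, *Rpl3*, their ratio and *Rpl22l1*, while each siUBA1 muscle lies above each siNT muscle for *Rpl22* and below it for the ratio of *Rpl22l1* to *Rpl22*.

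*Rpl22* encodes an RNA-binding protein on the surface of the subunit near the tunnel exit, and *Rpl22l1* its paralog, whose expression RPL22 is known to hold down. *Rpl22* was at 54.7, 58.8, 59.4 and 59.2 TPM in siNT replicates 1 to 4 and 70.3, 62.8, 69.9 and 64.7 TPM in siUBA1 replicates 1 to 4. The siUBA1 muscles were all above the siNT muscles, and replicate 1 of siNT was the lowest. The log2FC was 0.20 ± 0.0629 (SE) from limma (unadjusted p = 0.0105, adjusted p = 0.182), and *Rpl22* was higher in 4 of 4 pairs. A two-sided exact permutation test gave p = 0.0286, the lowest value it can give with this number of muscles. That test exchanged all muscles freely and ignored the pairs. Exchanging legs only within the 4 pairs could not give a p under 0.05 and was not run for this gene. The adjusted p does not pass, and *Rpl22* is described here because the unadjusted p chose it. Its log2FC was 0.081 with median-ratio scaling, where the unadjusted p was 0.143 and the groups still did not overlap (2.71% of all genes were higher without overlap on that scale), and 0.17 to 0.23 when each muscle was left out. Over all settings its lowest adjusted p was 0.0792 (limma with the replicate block and TPM without mitochondrial transcripts, a setting added after seeing the data).

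Set against the median of the other 49 tested members in the same muscle, *Rpl22* was at -1.40, -1.36, -1.46 and -1.39 on the log2 scale in siNT replicates 1 to 4 and at -1.44, -1.13, -1.22 and -1.19 in siUBA1 replicates 1 to 4. On this footing siUBA1 replicate 1 fell among the siNT muscles and the other 3 lay above them. The groups thus overlapped, with a difference of 0.16 and 3 of 4 pairs higher (two-sided exact permutation test, p = 0.114). *Rpl22l1* was at 32.4, 26.7, 27.8 and 31.5 TPM in siNT replicates 1 to 4 and 29.6, 23.1, 29.2 and 27.8 TPM in siUBA1 replicates 1 to 4. The groups overlapped and siUBA1 replicate 2 was the lowest, with a log2FC of -0.11 ± 0.0970 (SE; limma, adjusted p = 0.550) and a higher level in 1 of 4 pairs.

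The ratio of *Rpl22l1* to *Rpl22* was 0.592, 0.454, 0.467 and 0.531 in siNT replicates 1 to 4, and 0.421, 0.368, 0.417 and 0.430 in siUBA1 replicates 1 to 4. Each siUBA1 muscle was below each siNT muscle. The means were 0.511 ± 0.0638 and 0.409 ± 0.0277 (SD, n = 4 muscles each), the log2 difference was -0.31, and all 4 pairs went that way. A two-sided exact permutation test gave p = 0.0286, the smallest it can give, or 0.114 adjusted over the 4 paralog pairs compared. That test exchanged all muscles freely and ignored which were legs of 1 mouse. Exchanging legs only within mice could not give a p under 0.05 and was not run for this ratio. A ratio within a muscle barely depends on the scaling, and the log2 difference was -0.31 with median-ratio scaling and -0.24 to -0.36 with each muscle left out. This ratio was examined after values were seen. Its denominator is *Rpl22*, which the unadjusted p chose and whose groups were already separate, so the ratio partly restates that difference. With 4 pairs compared, a single pair whose groups are separated cannot go below an adjusted p of 0.114, so the adjusted test could not decide here.

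The other paralog pairs showed no such separation. *Rpl7* was at 161, 165, 172 and 168 TPM in siNT replicates 1 to 4 and 201, 143, 181 and 165 TPM in siUBA1 replicates 1 to 4. *Rpl7l1*, its less abundant paralog, was at 17.2, 16.5, 19.2 and 16.03 TPM in siNT replicates 1 to 4 and 20.7, 18.1, 18.7 and 15.9 TPM in siUBA1 replicates 1 to 4. The groups of both genes overlapped, and *Rpl7* was 7.93- to 10.5-fold above *Rpl7l1* in every muscle. The log2FC was 0.041 ± 0.0981 (SE; limma, adjusted p = 0.826) for *Rpl7*, and 0.084 ± 0.0901 (SE; limma, adjusted p = 0.615) for *Rpl7l1*, and the log2 ratio of *Rpl7l1* to *Rpl7* differed by 0.043 between groups (two-sided exact permutation test, p = 0.743; adjusted 0.743).

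*Rpl36a*, on the X chromosome, and *Rpl36al*, on an autosome, encode nearly the same protein. *Rpl36a* was at 60.9, 68.9, 72.5 and 65.1 TPM in siNT replicates 1 to 4 and 82.1, 60.5, 72.1 and 69.1 TPM in siUBA1 replicates 1 to 4. *Rpl36al* was at 90.4, 124, 116 and 111 TPM in siNT replicates 1 to 4 and 122, 90.9, 106 and 101 TPM in siUBA1 replicates 1 to 4. Both genes overlapped between groups, and *Rpl36al* was the more abundant in every muscle, at 59.4% to 64.3% of the pair. The log2FC was 0.079 ± 0.0973 (SE; limma, adjusted p = 0.660) for *Rpl36a*, and -0.072 ± 0.117 (SE; limma, adjusted p = 0.741) for *Rpl36al*. Their ratio was 1.65 ± 0.136 with NT and 1.48 ± 0.0190 in the siUBA1 group (SD, n = 4 muscles), with siNT replicate 1 inside the range of the siUBA1 muscles (log2 difference -0.15, exact permutation test, two-sided, p = 0.0857; 0.171 adjusted over the 4 pairs).

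*Rpl39*, a small protein of the exit tunnel, was at 82.9, 87.95, 98.7 and 90.5 TPM in siNT replicates 1 to 4 and 112, 68.2, 97.9 and 81.4 TPM in siUBA1 replicates 1 to 4. The groups overlapped and siUBA1 replicates 1 and 2 were the extremes, with a log2FC of -0.025 ± 0.139 (SE; limma, adjusted p = 0.931). Its paralog *Rpl39l* was at 0.458, 0.0777, 0.161 and 0.0829 TPM in siNT replicates 1 to 4 and 0.245, 0.539, 0.0831 and 0.713 TPM in siUBA1 replicates 1 to 4, below the level at which genes were tested. *Rpl10*, which is added late in subunit assembly and lies close to the P site, was at 79.4, 105, 87.9 and 83.97 TPM in siNT replicates 1 to 4 and 90.6, 67.4, 86.9 and 93.8 TPM in siUBA1 replicates 1 to 4. Its groups overlapped, with siNT replicate 2 the highest, and the log2FC was -0.077 ± 0.121 (SE; limma, adjusted p = 0.734). The row *Rpl10-ps3*, a near-identical pseudogene, was at 330.7 to 396 TPM, which is 3.19- to 4.91-fold the level of *Rpl10*, so how reads were shared between these copies is uncertain. Added together they were at 446 ± 5.07 TPM with NT and 448 ± 43.0 TPM in the siUBA1 group (SD, n = 4 muscles). The summed log2FC was 0.0017 ± 0.0760 (SE; limma, adjusted p = 0.991).

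The P stalk is built on *Rplp0*, which carries dimers of *Rplp1* and *Rplp2*. *Rplp0* was at 663, 767, 741 and 727 TPM in siNT replicates 1 to 4 and 800.1, 616, 705 and 655 TPM in siUBA1 replicates 1 to 4. *Rplp1* was at 1083, 1134, 1198 and 1122 TPM in siNT replicates 1 to 4 and 1375, 1009.5, 1224 and 1056 TPM in siUBA1 replicates 1 to 4. *Rplp2* was at 139, 152, 165 and 134 TPM in siNT replicates 1 to 4 and 176, 133, 158 and 139 TPM in siUBA1 replicates 1 to 4. In all 3 genes siUBA1 replicate 1 was the highest and siUBA1 replicate 2 the lowest, and the groups overlapped. The log2FC was -0.067 ± 0.0906 (SE; limma, adjusted p = 0.691) for *Rplp0*, 0.030 ± 0.101 (SE; limma, adjusted p = 0.876) for *Rplp1* and 0.031 ± 0.104 (SE; limma, adjusted p = 0.880) for *Rplp2*. With median-ratio scaling *Rplp0* was at -0.19 (unadjusted p = 0.0241, adjusted p = 0.374 from limma). *Rpl12*, at the foot of the stalk, had a log2FC of 0.019.

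*Rpl5* and *Rpl11* bind the 5S rRNA and, outside ribosomes, the ubiquitin ligase MDM2. *Rpl5* was at 111, 109.6, 115 and 115 TPM in siNT replicates 1 to 4 and 136, 104, 129 and 112 TPM in siUBA1 replicates 1 to 4. *Rpl11* was at 91.6, 95.6, 100.3 and 90.8 TPM in siNT replicates 1 to 4 and 113, 79.6, 103 and 86.7 TPM in siUBA1 replicates 1 to 4. Both followed the order of the other members, with siUBA1 replicate 1 highest and siUBA1 replicate 2 lowest, and overlapped between groups. The log2FC was 0.089 ± 0.0881 (SE; limma, adjusted p = 0.584) for *Rpl5* and 0.00056 ± 0.106 (SE; limma, adjusted p = 0.998) for *Rpl11*. *Rpl34*, with the second highest log2FC of the tested members, was at 54.6, 56.5, 60.9 and 55.97 TPM in siNT replicates 1 to 4 and 70.9, 50.5, 67.03 and 58.2 TPM in siUBA1 replicates 1 to 4. It too overlapped between groups, with a log2FC of 0.10 ± 0.104 (SE; limma, adjusted p = 0.602).

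Members were also grouped by their place in the subunit, in lists that hold some of the genes above again. Of 9 proteins of the exit tunnel and its rim, 6 had a log2FC above 0, with *Rpl4* at 0.017, *Rpl17* at 0.054, *Rpl26* at 0.080 and *Rpl23a*, where nascent-chain factors dock, at -0.046, and the median was 0.028. Of 5 proteins near the peptidyl transferase centre and the tRNA sites, 3 were above 0, with *Rpl8* at 0.075 and *Rpl10a* at 0.035, and a median of 0.035. Of 6 proteins of the bridges to the small subunit, 5 were above 0, with *Rpl24* at 0.071, *Rpl19* at 0.028 and *Rpl41* at -0.011, and a median of 0.028. The share of all genes above 0 was 81.8%. On the median-ratio scale the counts above 0 were 1 of the 9, 0 of the 5 and 0 of the 6, against 50.7% of all genes. Over these groups 1 gene, *Rpl22*, with TPM as deposited, passed the unadjusted p and 0 passed the adjusted p. Of all genes, 16.0% were higher and 1.98% lower at the unadjusted p. The other 22 tested members, in none of these groups and in no paralog pair, the P stalk or the 5S particle, had log2FC values from -0.052 (*Rpl21*) to 0.10 (*Rpl34*) with a median of 0.030, and 20 of the 22 were above 0, against 0 of the 22 on the median-ratio scale. All tested members lay between a log2FC of -0.11 (*Rpl22l1*) and 0.20 (*Rpl22*). On the median-ratio scale the groups did not overlap for *Rpl18* and *Rpl23a*, which were lower, where 4.14% of all genes were.

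Genes that share the members' function or control were counted from lists. For each list, the shares to read the counts against are those of all genes tested, of which 81.8% had a log2FC above 0 and, at the unadjusted p, 16.0% were higher and 1.98% lower. With median-ratio scaling they are 50.7%, 4.43% and 6.18%. Of 31 genes of the cytosolic small subunit, 22 had a log2FC above 0, 0 passed the unadjusted p, and the median was 0.024, against 0.028 for the large subunit and 0.11 for all genes, while on the median-ratio scale 2 of the 31 were above 0. Like the large subunit, 31 of these 31 genes were highest in siUBA1 replicate 1 and 28 lowest in siUBA1 replicate 2. Those with the smallest p were *Rps18* (log2FC 0.15), *Rps14* (log2FC 0.16) and *Rps27* (log2FC 0.11), with adjusted p from 0.358 to 0.423 (limma). *Rps27a*, which encodes ubiquitin fused to a ribosomal protein, was at a log2FC of -0.0093, and *Fau*, which encodes a ubiquitin-like protein fused to one, was at 0.068. Both were highest in siUBA1 replicate 1 and lowest in siUBA1 replicate 2.

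Of 49 tested genes of the mitochondrial large subunit, which are nuclear genes of another ribosome, 44 (89.8%) had a log2FC above 0, with a median of 0.062. At the unadjusted p 3 (6.12%, against 16.0% of all genes) were higher, led by *Mrpl14* (log2FC 0.18) and *Mrpl2* (log2FC 0.15). The 1 that was lower was *Mrpl34* (log2FC -0.60, adjusted p = 0.155 from limma). With median-ratio scaling 7 of the 49 were above 0, and 0 were higher and 4 lower at the unadjusted p. Of the 49, 46 were highest in siUBA1 replicate 1 and 15 lowest in siUBA1 replicate 2. Of 20 other TOP mRNAs, 16 were above 0 with a median of 0.048, and 1 passed the unadjusted p, the initiation factor subunit *Eif3f* (log2FC 0.19). With median-ratio scaling 3 of the 20 were above 0, and 0 were higher and 1 lower at the unadjusted p. Of 32 tested genes of 60S assembly and the nucleolus, 27 (84.4%) were above 0 with a median of 0.060, and 2 (6.25%, against 16.0% of all genes) were higher at the unadjusted p, *Heatr3* (0.22), which carries RPL5 into the nucleus, and *Mdn1* (0.20), an ATPase that strips assembly factors. With median-ratio scaling 6 of the 32 were above 0, the median was -0.045 and 0 were higher at the unadjusted p. In each of these lists 0 passed the adjusted p.

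Among 14 tested genes that control the transcription or translation of ribosomal protein mRNAs, 10 (71.4%, against 81.8% of all genes) had a log2FC above 0, and 4 (28.6%, against 16.0%) were higher and 1 lower at the unadjusted p. With median-ratio scaling 7 were above 0, and 0 were higher and 2 lower at the unadjusted p, so no call of a higher level was left. *Myc*, which drives ribosome biogenesis, was at 10.99 ± 2.63 TPM in siNT and 4.20 ± 1.44 TPM in siUBA1 muscles (SD, n = 4 each), without overlap. Its log2FC was -1.21 ± 0.205 (SE; limma, adjusted p = 0.0760), and with the replicate number as a block the adjusted p was 0.0268 (limma), the only call that the block added in these lists. *Larp1*, which binds TOP tracts, had a log2FC of 0.23 and *Max*, the partner of MYC, of 0.19, with adjusted p of 0.210 and 0.197 (limma).

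Of 26 genes of ribosome-associated quality control and ribosome ubiquitination, 23 (88.5%, against 81.8% of all genes) were above 0 with a median of 0.096, and 4 (15.4%, against 16.0%) were higher at the unadjusted p, among them *Ankzf1* (0.23), which releases stalled chains, *Ascc3* (0.21), which splits collided ribosomes, and *Ufd1* (0.17), a cofactor of the p97 ATPase. With median-ratio scaling 8 of the 26 were above 0, and 0 were higher and 2 lower at the unadjusted p. Of 5 tested genes of the pathway from RPL5 and RPL11 through MDM2 to p53, 2 were above 0, and 1 with median-ratio scaling. The p53 target *Cdkn1a* was lower at the unadjusted p, with a log2FC of -0.60 (limma, adjusted p = 0.241), while *Mdm2* was at -0.055. None of these genes passed the adjusted p.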

How the data were processed

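Total RNA of the 8 TA muscles was made into TruSeq libraries and sequenced as paired-end reads. According to the methods and the file header, the authors trimmed and mapped the reads to GRCm39 in CLC Genomics Workbench and deposited 1 column of TPM per muscle for 41709 genes. The annotation, the strand setting and the treatment of reads that match several genes are not given in the sources used here, so values of near-identical copies are uncertain. TPM hold no read totals, so no counting interval is given and the 4 muscles a group limit the precision.

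Genes at 1 TPM or more in 4 or more muscles were kept (11530), log2(TPM + 1) was taken, and groups were compared with limma 3.58.1 in R 4.3.3 (lmFit, eBayes with trend, no covariates) with Benjamini-Hochberg adjustment over all 11530 genes. A log2FC on this scale understates changes of low genes. Single values were compared with two-sided exact permutation tests, which exchanged muscles between the groups without regard to the pairs. The study's methods name an unpaired rank test on log TPM, so the main fit has no block. Equal replicate numbers mark the legs of 1 mouse per the titles and methods. Over genes, their deviations from the group means correlated at -0.000368, 0.201, 0.584 and 0.537, so a fit with the replicate number as a block was an alternative. Gene positions and sequences come from GENCODE M39 and GRCm39.

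Members were taken by their symbols. The genes with values in every muscle were the paralog pairs, the P stalk, *Rpl5*, *Rpl11*, members past an unadjusted p of 0.05, and the 3 members with the highest and the 3 with the lowest log2FC. Members, lists and tests were chosen with earlier results of these data known. The alternatives were a pseudocount of 0.1, no filter, a mean of 5 TPM or more, median-ratio scaling, quantile normalization, TPM without mitochondrial genes, the Kruskal-Wallis test, a plain linear model, the block alone or combined with median-ratio scaling, members summed with their pseudogene rows, and each muscle left out.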

Additional observations from a re-analysis of the deposited data

Results flagged for a closer look

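In groups of 4 muscles, a value was picked out where its gap to the nearest other value took more of the group's range than Dixon's critical value for 4 values allows. Of 42 groups examined, 3 were, where chance gives about 1 in 20 groups, or 2.1 here. *Rpl3* was at 55.6 TPM in siNT replicate 3, against 39.8 to 42.3 TPM in the other siNT muscles. *Rpl3l* was at 486 TPM in the same muscle, against 499.5 to 502 TPM. *Rpl22* was at 54.7 TPM in siNT replicate 1, against 58.8 to 59.4 TPM in the others. Without siNT replicate 3 the log2FC of *Rpl3* was 0.012, and without siNT replicate 1 that of *Rpl22* was 0.17.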

How the results depend on the processing

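In every setting run 0 members passed the adjusted p, while 1 to 4 of the 50 tested passed the unadjusted p, which is *Rpl22* in most. Over all genes, those past the unadjusted p ran from 1108 of 11530 (quantile normalization) to 3542 of 11512 (block with TPM without mitochondrial genes). The sign of small log2FC values depended on the scaling. Median-ratio scaling, whether or not the replicate block was added, gave 1 higher member and 4 past the unadjusted p. Of the 11530 genes tested on that scale, 1223 passed the unadjusted p without the block and 1813 with it. The log2FC there was -0.098 for *Rpl3l*, -0.032 for *Rpl5* and -0.020 for *Rpl34*, each opposite in sign to the value from TPM as deposited. With quantile normalization 17 members were higher and *Rpl3l* was at -0.011. The pairs of legs moved no member past the adjusted p. With the replicate block the log2 ratio of *Rpl3l* to *Rpl3* differed by 0.12 (exact permutation of the signs of 4 pairs, p = 0.375), no count of members moved, and 57 genes passed against 3 without it.

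Leaving out each muscle gave 7 to 47 higher members and 1 to 2 past the unadjusted p, where 1333 to 2282 of the 11530 genes tested were. In these fits the log2FC was -0.017 to 0.056 for *Rpl3l*, -0.20 to 0.038 for *Rpl3* and -2.18 to -1.64 for *Uba1*. Of all genes, 2 to 39 passed the adjusted p. The ratio of *Rpl22l1* to *Rpl22* gave exact permutation p-values of 0.0286 without a siNT muscle and 0.0571 to 0.0857 without a siUBA1 muscle. Over all genes, the stricter filter (mean of 5 TPM) gave 11 calls, median-ratio scaling 23, quantile normalization 28, TPM without mitochondrial genes 13, block plus median-ratio scaling 76, block plus TPM without mitochondrial genes 74, and the Kruskal-Wallis test 0, with 2210 at its unadjusted p, where *Uba1* too is at an adjusted p of 0.180 and could not pass. *Uba1* passed the adjusted p in several of these, at -1.98 with the stricter filter and with the block, -2.09 with median-ratio scaling with and without the block, -2.06 with quantile normalization, -1.996 without mitochondrial genes, blocked or not, -1.62 with siUBA1 replicates 1 and 2 both left out, -1.64 without siUBA1 replicate 2 (adjusted p = 0.00257, limma, the lowest of all settings) and -2.18 without siUBA1 replicate 4 (adjusted p = 0.0206, limma). The setting without both muscles and the block without mitochondrial genes were chosen after seeing the data, as were the alternatives for the ratio of *Rpl22l1* to *Rpl22*. The causes were not tested.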
